A study of Mus musculus with 31 samples.

Results

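Replication-dependent histone genes encode the bulk of the histones that package newly made DNA. They were taken from the deposited exon table as all gene symbols beginning Hist1h, Hist2h, Hist3h or Hist4h, with 1 transcript per symbol (the one with the most counts). This gave 69 of 24470 symbols: 6 for linker histone H1, 19 for H2A, 19 for H2B, 12 for H3 and 13 for H4. Because the rule reads only the name, it also takes a pseudogene (Hist3h2bb-ps) and genes known from the testis (Hist1h1t, Hist1h2ba and Hist1h2aa).

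The study measured RNA in female mouse dermal fibroblasts from a cross of CAST/Ei and 129/Sv/Jae. WT cells were compared with 2 cell lines labelled XaWT XiΔXist, in which the inactive X lacks Xist, the noncoding RNA that silences it. The line without a number in its label is called line 1 here and the one labelled #2 is called line 2; both carry a wild-type active X, none of the 3 groups was treated, and each group had 2 RNA-seq libraries called biological replicates. The deletion is represented by 2 cell lines, so a difference between groups can be a difference between lines, and p-values measure only the spread between these libraries.

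Core histones H2A, H2B, H3 and H4 form the nucleosome, around which DNA is wrapped, and H1 binds the linker DNA between nucleosomes. The genes of this family are transcribed mainly in S phase under the coactivator NPAT. Their mRNAs end in a stem-loop bound by SLBP in place of a poly(A) tail, so a poly(A)-selected library misses most of them, whereas the total RNA used here was only depleted of ribosomal RNA.

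The 6 libraries held 3.81 to 7.07 M counts (M, 1000000 counts) over the symbols used, and replicate 1 was the shallower library in each group. Xist had 633 and 429 CPM (counts per 1000000 counts of the scaled library) in the WT libraries, 1.08 and 0.273 in those of line 1, and 0.969 and 0.282 in those of line 2, which matches the labels. All 10 fibroblast markers were detected, with summed levels of 5223 to 6384 CPM in WT, 4406 to 7029 in line 1 and 5177 to 6475 in line 2. Among them Dcn, a matrix proteoglycan, rose in line 1 (log2 fold change 2.19, adjusted p = 0.0215, edgeR), a call lost without WT replicate 2 (1.70, adjusted p = 0.0586). In line 2 Dcn was not called (-0.87, adjusted p = 0.476, edgeR) except with the replicate number as a block in the fit (-0.79, adjusted p = 0.0354, edgeR), and line 2 minus line 1 was -3.06 (adjusted p = 0.0083, edgeR). Summed markers of keratinocytes, leukocytes, endothelial cells and melanocytes stayed at or under 13.0 CPM in every library, and 1 keratinocyte and 1 melanocyte marker had no counts. Leukocyte markers summed to 3.03 and 2.08 CPM in the WT libraries, 13.0 and 5.05 in those of line 1, and 3.39 and 2.40 in those of line 2. In line 1 nearly all of this was Cd68, a macrophage protein (line 1 log2 fold change 1.98, adjusted p = 0.0605, edgeR). There Cd68 was called by edgeR with the block (adjusted p = 0.0105) and without a filter on low counts (0.00357), and by DESeq2 (0.048). Line 2 minus line 1, Cd68 had -1.81 (adjusted p = 0.0804, edgeR) and was called with the block (-1.69, adjusted p = 0.0143, edgeR) and without a filter (-1.78, adjusted p = 0.00675, edgeR). Ptprc, the leukocyte antigen CD45, had 1.5 counts in all. Endothelial markers summed to 1.52 and 1.12 CPM in the WT libraries, 2.97 and 3.55 in those of line 1, and 5.33 and 4.51 in those of line 2. Of these only Tek, an endothelial receptor, was tested (line 2 log2 fold change 1.94, adjusted p = 0.0767, edgeR). In line 2 edgeR called Tek with the block (adjusted p = 0.0151), without a filter (0.0131) and with WT and line 2 alone (0.0355). DESeq2 did not call it (adjusted p = 0.348). Line 2 minus line 1, Tek had 1.48 (adjusted p = 0.0717, edgeR) and was called with the block (1.49, adjusted p = 0.0142, edgeR). The part of such cells in the histone values was not tested.

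Histone RNA was abundant in all 3 groups. Summed over the 66 distinct members (3 pairs of symbols have identical values and were counted once), it came to 3026 and 2874 CPM in the WT libraries, 3306 and 2562 in those of line 1, and 2793 and 2515 in those of line 2, or 0.256% to 0.321% of all counts. Group means were 2950 ± 108 CPM for WT (SD, n = 2), 2934 ± 526 for line 1 and 2654 ± 196 for line 2. Replicate 1 was the higher library in every group, the WT and line 1 ranges overlapped, and both line 2 libraries lay below both WT libraries. With 2 libraries against 2, no exact test of these sums can pass, and in these bulk samples fewer cells in S phase and less histone RNA per cell cannot be told apart.

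Type by type, the 2 libraries of line 1 stood further apart than those of WT or line 2 for H1, H2A, H2B and H4. H1 summed to 745 and 723 CPM in the WT libraries, 722 and 562 in those of line 1, and 690 and 648 in those of line 2. H2A summed to 662 and 616 in the WT libraries, 771 and 561 in those of line 1, and 594 and 544 in those of line 2. The lowest H1 library and the highest H2A library were both of line 1. H2B summed to 586 and 521 CPM in the WT libraries, 619 and 481 in those of line 1, and 502 and 435 in those of line 2. H3 was higher in both line 1 libraries than in both WT libraries, at 475 and 427 CPM in the WT libraries, 580 and 506 in those of line 1, and 509 and 388 in those of line 2. H4 summed to 559 and 588 in the WT libraries, 614 and 453 in those of line 1, and 497 and 499 in those of line 2, so that line 1 enclosed both other groups. Both line 2 libraries were below both WT libraries for H1, H2A, H2B and H4, but not for H3. For the core histones together, the log2 ratio of line 1 to WT was 0.18 in replicate 1 and -0.10 in replicate 2, and that of line 2 to WT was -0.12 and -0.20.

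**Figure D1:**
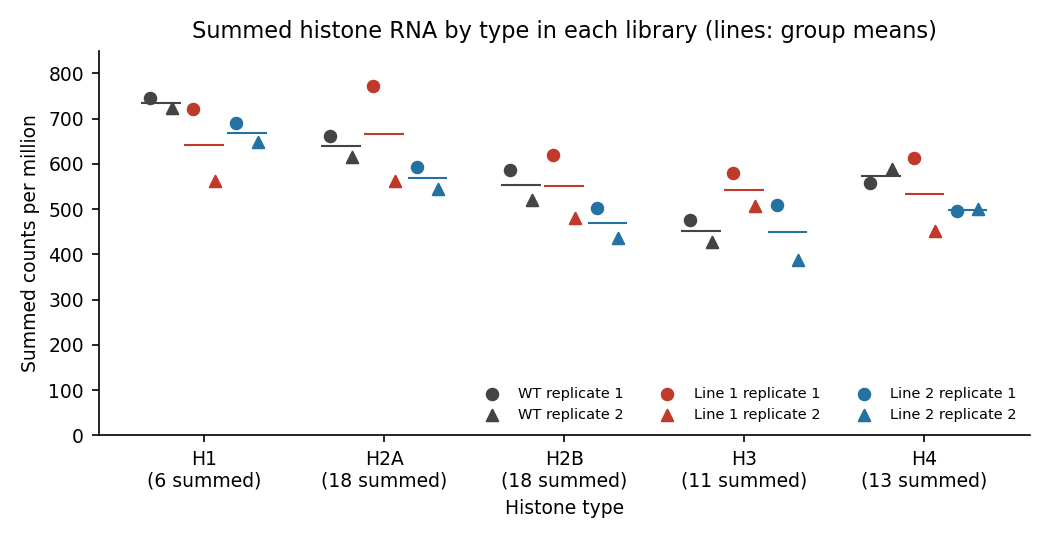
Summed CPM (vertical axis, from 0) of the histone genes of each type in each library; circles are replicate 1, triangles replicate 2 and lines group means. The 2 line 1 libraries stand far apart for H1, H2A, H2B and H4, with H2A at 771 and 561 CPM.

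Levels of single genes were compared per length, as CPM per kilobase, averaged over the 6 libraries. The median gene stood at 174 for H1, 62.1 for H2A, 42.0 for H2B, 85.4 for H3 and 104 for H4. H1 ran from 1.43 to 205, or from 141 to 205 without the testis gene Hist1h1t. H3 was the most even of the other types, from 55.1 to 126, whereas H2A ran from 0.485 to 129 and H2B from 1.56 to 159. Some records at the low end are long ones, such as Hist2h2be (2666 bases), Hist1h2be (2505 bases), Hist1h2bq and Hist1h2br (2120 bases each) and Hist1h2al (2982 bases), against a median of 486 bases, which lowers a level per length where reads fall on a short stretch of the record.

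**Figure D2:**
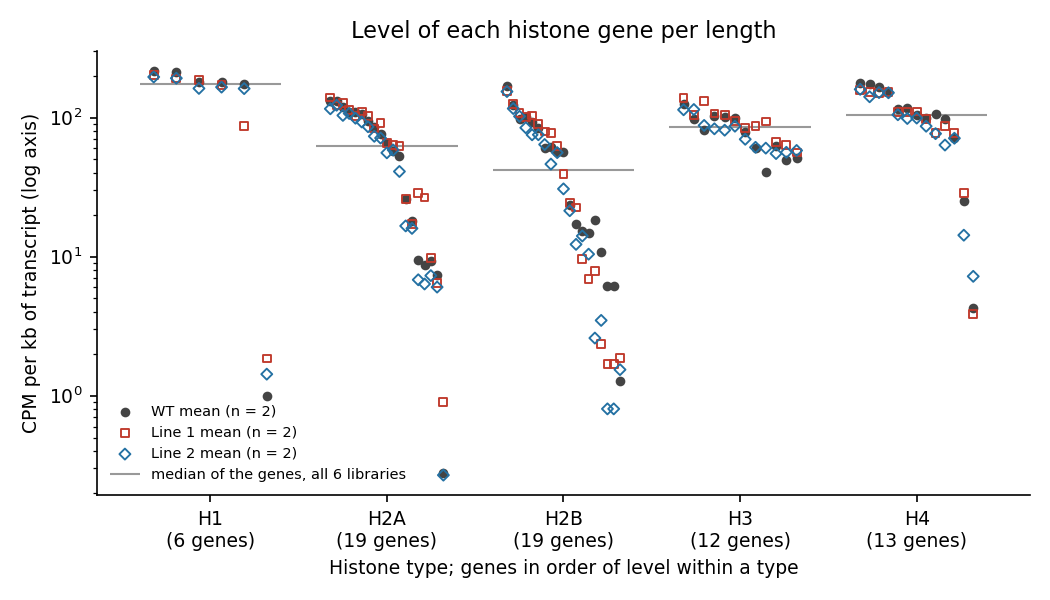
Level of each of the 69 genes in CPM per kilobase on a log axis, as the mean of 2 libraries in WT, line 1 and line 2, in order of level within each type; grey lines mark the median gene. H1 genes other than Hist1h1t lie near the top, except Hist1h1a in line 1 at 87.2, and H2A and H2B have long tails of low genes.

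The 5 somatic linker histone genes were the highest group per length. In WT, Hist1h1e reached 216 ± 2.73 CPM per kilobase (SD, n = 2), Hist1h1c 211 ± 8.85, Hist1h1d 181 ± 12.2, Hist1h1b 179 ± 13.2 and Hist1h1a 173 ± 5.95. The first 2 and the last 3 of these did not differ among themselves beyond the replicate spread. Hist1h1t, the testis linker histone, stood at 0.998 ± 0.438 in WT, at 1.85 ± 0.0128 in line 1 and at 1.43 ± 0.153 in line 2, from 33.5 counts in all, and was too low to be tested.

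The highest H2A genes per length were Hist1h2ab (131 ± 1.30 in WT, 139 ± 15.4 in line 1, 116 ± 13.4 in line 2), Hist3h2a (132 ± 8.20, 122 ± 23.4 and 123 ± 13.2) and Hist1h2ai (119 ± 6.60, 127 ± 19.1 and 104 ± 9.24). Among H2B genes Hist2h2bb led with 168 ± 24.6 CPM per kilobase in WT, 154 ± 44.2 in line 1 and 154 ± 26.4 in line 2, ahead of Hist1h2bg (122 ± 5.55 in WT) and Hist1h2bb (97.5 ± 17.1 in WT). None of these leading genes was called in any comparison. Hist1h3g led H3 with 125 ± 7.25 CPM per kilobase in WT, 138 ± 21.1 in line 1 and 114 ± 8.84 in line 2. It was followed by Hist2h3b (97.2 ± 4.82 in WT) and Hist1h3e, whose libraries ranged from 22.4 to 67.6 CPM. The leading H4 genes came from 3 loci: Hist2h4 (176 ± 2.57 in WT, 158 ± 36.0 in line 1, 159 ± 8.90 in line 2), Hist1h4d (173 ± 21.2, 152 ± 23.5 and 141 ± 0.466) and Hist4h4 (164 ± 1.60, 149 ± 26.2 and 151 ± 6.29). All H4 genes are known to encode the same protein, so these records differ in gene, not in product.

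Of the 69 genes, 67 passed the filter on low counts and were tested with edgeR's quasi-likelihood test over all 12910 symbols that passed, with Benjamini-Hochberg adjustment and a threshold of 0.05. Hist1h1t and Hist1h2aa were not tested. In line 1 against WT, 2 of 67 members were called, both lower, against a background of 14.3% of all symbols (7.55% lower); they were Hist1h1a and Hist3h2ba. In line 2 against WT no member was called, against a background of 3.58%; 5 members had an unadjusted p under 0.05 in edgeR, and DESeq2 called 2 (background 4.5%). Between the lines (line 2 minus line 1) only Hist1h1a was called by edgeR, higher in line 2, against a background of 12.6% (6.87% higher). Against WT, the median log2 fold change of the members was 0.03 in line 1 and -0.16 in line 2, beside 0.01 for all symbols in both. The line 2 median was close to this in 2 gene lists described below. It was -0.16 for replication-independent histones (11 tested) and -0.13 for other RNAs without a poly(A) tail (8 tested). In the other gene lists it ran from -0.055 to 0.049. Above 0 were 35 of 67 members in line 1 and 11 of 67 in line 2, beside 50.6% and 50.7% of all symbols. The members were measured in the same libraries, so their directions are not independent of each other. The line 1 median took its sign from the library kept, at -0.26 without line 1 replicate 1 and 0.20 without line 1 replicate 2. The comparisons with WT share its 2 libraries. With the replicate number as a block in the fit, edgeR called 5 members in line 1 (background 32.4%), 1 in line 2 (background 12.1%) and 3 between the lines (background 27.2%). DESeq2 called 2 members in line 1 (background 14.4%) and 1 between the lines (background 13.0%), and edgeR without a filter on low counts called 6, 3 and 1 members in line 1, in line 2 and between the lines (backgrounds 13.6%, 4.84% and 12%).

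**Figure D3:**
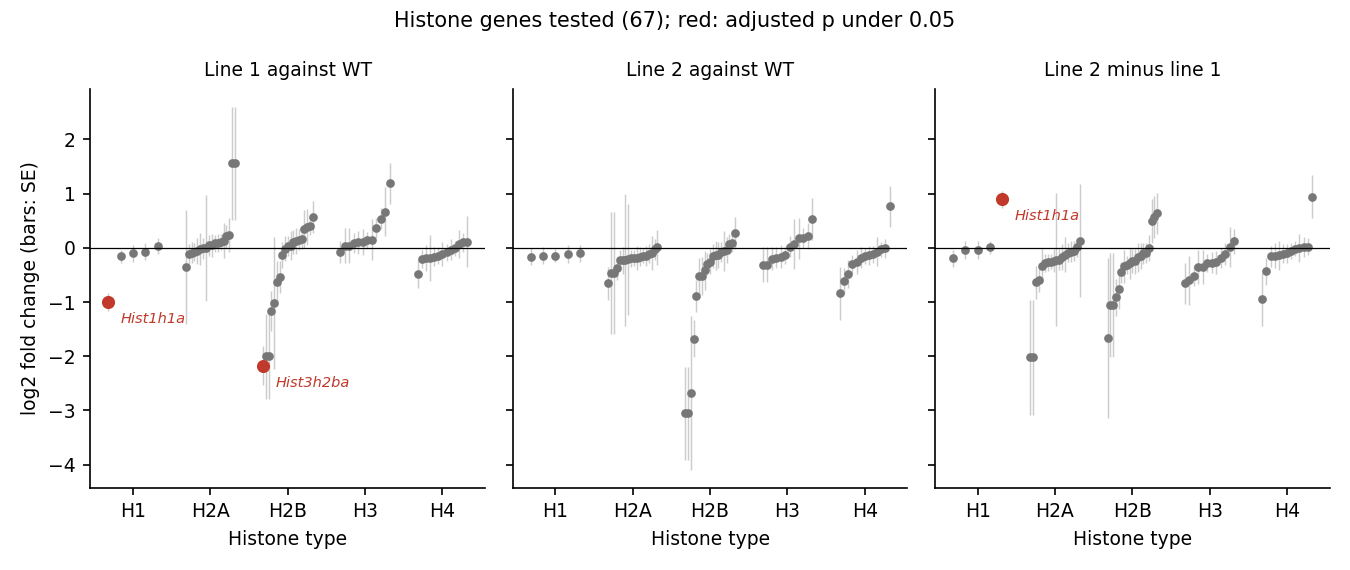
Log2 fold change (vertical axis, bars are standard errors) of the 67 histone genes tested, by type, in line 1 against WT, line 2 against WT and line 2 minus line 1; red points have an adjusted p under 0.05. Hist1h1a and Hist3h2ba are the called genes, and most other points lie within 0.5 of 0, as do most symbols. In line 1 this held for 79.1% of members and 70.1% of all symbols, and in line 2 for 82.1% and 81.3%. For line 2 minus line 1 the shares were 74.6% and 72.5%.

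Hist1h1a, which encodes the H1.1 linker histone, was lower in line 1 than in the other groups. The gene lies on the plus strand at chr13:23763668-23764412 (mm10). It had 132 and 126 CPM in the WT libraries, 73.3 and 56.5 in those of line 1, and 128 and 112 in those of line 2. Both line 1 libraries lay well below all 4 others, and WT and line 2 overlapped. Its log2 fold change was -0.996 (SE 0.16, adjusted p = 0.0112, edgeR) in line 1. In line 2 it was -0.10 (SE 0.16, adjusted p = 0.891, edgeR). Tested directly, line 2 minus line 1 was 0.89 (SE 0.16, adjusted p = 0.0172, edgeR). Within replicate 1, line 1 lay below WT by a log2 difference of -0.85, and within replicate 2 by -1.15. The line 1 call was lost when either WT library was left out (adjusted p = 0.0712 without WT replicate 1 and 0.0596 without WT replicate 2, edgeR), while the fold change stayed at -0.97 and -1.02. The call between the lines was lost without either line 2 library (0.80, adjusted p = 0.114, without replicate 1, and 0.98, adjusted p = 0.065, without replicate 2, edgeR).

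The other 4 somatic H1 genes were not called. Together they had 613 and 597 CPM in the WT libraries, 647 and 504 in those of line 1, and 561 and 535 in those of line 2, so the WT values fell inside the line 1 range. Hist1h1b had log2 fold changes of -0.07 in line 1 and -0.12 in line 2, Hist1h1c -0.15 and -0.14, Hist1h1d 0.03 and -0.16, and Hist1h1e -0.10 and -0.14, each with an SE of 0.12 to 0.16. As a share of the counts of the 5 genes, Hist1h1a made up 17.7% and 17.4% of the WT libraries, 10.2% and 10.1% of those of line 1, and 18.6% and 17.3% of those of line 2. This share was close between the 2 line 1 libraries although their totals differed. Nearby, Carmil1, an actin regulator, was not called against WT in either line (0.39 with adjusted p = 0.0821 for line 1, -0.24 with adjusted p = 0.47 for line 2, edgeR) and was lower in line 2 than in line 1 (-0.63, adjusted p = 0.0204, edgeR); the block called it in line 1 (0.39, adjusted p = 0.0177, edgeR). Hfe, an iron regulator, was the other neighbour tested within 250 kb and was not called.

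**Figure D4:**
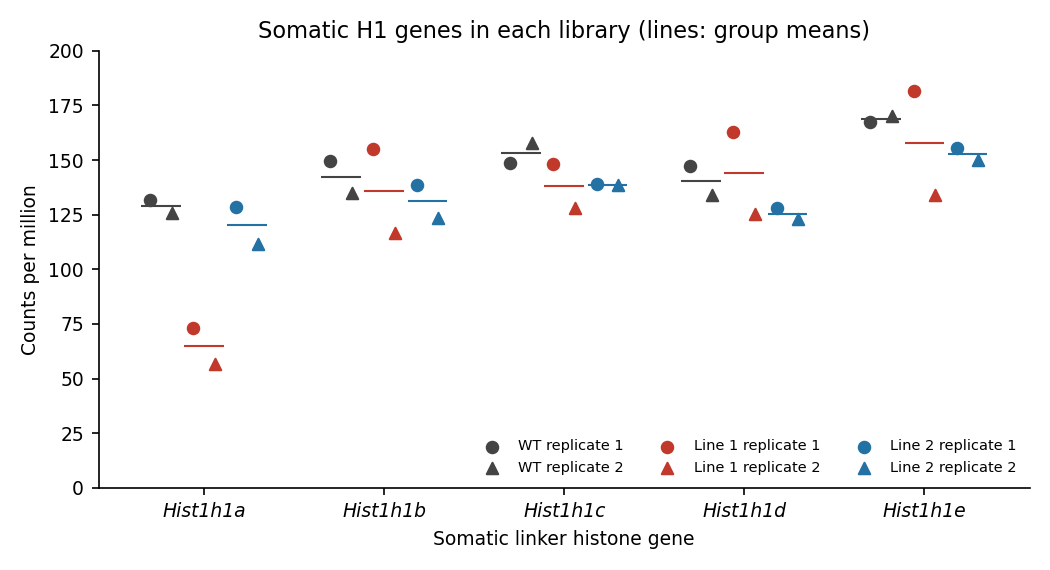
CPM (vertical axis, from 0) of the 5 somatic H1 genes in each library; circles are replicate 1, triangles replicate 2 and lines group means. For Hist1h1a the line 1 libraries, at 73.3 and 56.5 CPM, stand apart from the other 4; for the other genes the groups lie close together.

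Because Hist1h1a was the H1 gene called, the 150 bases before each somatic H1 start are shown, from RefSeq on GRCm38.p6 (the mm10 assembly), 5′ to 3′ on the gene's own strand. Capitals mark the H1 box AAACACA, an element known from H1 promoters, CCAAT on either strand, and TATANA on the strand shown. The windows are chr13:23763518-23763667 (plus) for Hist1h1a, chr13:21780626-21780775 (minus) for Hist1h1b, chr13:23738657-23738806 (plus) for Hist1h1c, chr13:23554882-23555031 (plus) for Hist1h1d and chr13:23622559-23622708 (minus) for Hist1h1e.
Hist1h1a: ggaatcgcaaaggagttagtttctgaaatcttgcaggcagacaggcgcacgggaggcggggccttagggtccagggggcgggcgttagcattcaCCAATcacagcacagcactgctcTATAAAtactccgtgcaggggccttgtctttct
Hist1h1b: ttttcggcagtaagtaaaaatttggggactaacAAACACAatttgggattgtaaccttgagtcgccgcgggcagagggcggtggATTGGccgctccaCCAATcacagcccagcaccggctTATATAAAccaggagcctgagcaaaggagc
Hist1h1c: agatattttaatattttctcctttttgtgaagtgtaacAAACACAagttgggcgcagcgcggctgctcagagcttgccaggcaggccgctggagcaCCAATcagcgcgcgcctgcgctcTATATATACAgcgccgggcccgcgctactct
Hist1h1d: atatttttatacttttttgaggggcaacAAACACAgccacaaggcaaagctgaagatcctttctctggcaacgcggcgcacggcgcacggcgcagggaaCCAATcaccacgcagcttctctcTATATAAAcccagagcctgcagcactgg
Hist1h1e: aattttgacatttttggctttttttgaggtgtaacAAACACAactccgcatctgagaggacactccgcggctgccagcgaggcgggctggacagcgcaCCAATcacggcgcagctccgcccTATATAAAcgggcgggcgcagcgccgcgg
The H1 box was found in Hist1h1b, Hist1h1c, Hist1h1d and Hist1h1e, beginning 117, 112, 122 and 115 bases before the start, and these letters are not in the Hist1h1a window on either strand, also when it is extended to the 300 bases held by the table. CCAAT and TATANA occur in all 5. Of the 69 members 62 had a promoter in the table, and over its 300-base windows (250 before and 50 after the start, both strands) AAACACA was in 5 of 6 H1 promoters, Hist1h1t included, 9 of 62 member promoters and 7.2% of all 32851 promoters. CCAAT was in every matched H1, H2A, H2B and H3 promoter but in 3 of 12 H4 promoters, against 37.4% of all. TATANA was in 49 of 62 member promoters, against 24.7% of all. The octamer ATTTGCAT, known from H2B promoters, was in 6 of 16 H2B and 7 of 18 H2A promoters, in no H1, H3 or H4 promoter, and in 1.7% of all; the windows of H2A and H2B neighbours that start close together overlap.

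The 3 members of the Hist3 locus on chromosome 11 were of unequal level. Hist3h2a, an H2A gene at chr11:58954685-58955192 (plus), had 69.7 and 63.8 CPM in the WT libraries, 70.3 and 53.5 in those of line 1, and 66.9 and 57.4 in those of line 2, and was not called. Its groups overlapped. Hist3h2ba, an H2B gene at chr11:58948911-58949372 (plus), had 5.05 and 4.96 CPM in the WT libraries, 1.08 and 1.09 in those of line 1, and 1.94 and 1.27 in those of line 2. These are few counts: 19.5 and 31 in the WT libraries, 4.0 and 8.0 in those of line 1, and 8.0 and 8.5 in those of line 2. All 4 libraries of the 2 lines were below both WT libraries. Its log2 fold change was -2.18 (SE 0.36, adjusted p = 0.012, edgeR) in line 1. For line 2 it came to -1.68 (SE 0.34, adjusted p = 0.0558, edgeR), where the replicate block gave -1.70 and an adjusted p of 0.0144 in edgeR. In line 2 edgeR also called it without a filter on low counts and with WT and line 2 alone. The lines did not differ from each other in this test (line 2 minus line 1 0.50, SE 0.41, adjusted p = 0.672, edgeR). The line 1 call was lost in DESeq2 (adjusted p = 0.0689), without WT replicate 1 (0.0741, edgeR) and without WT replicate 2 (adjusted p = 0.0948, edgeR).

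The pseudogene record Hist3h2bb-ps at chr11:58954048-58954512 (minus) had 7.33 and 6.40 CPM in the WT libraries, 4.05 and 2.32 in those of line 1, and 5.57 and 4.09 in those of line 2. Its log2 fold change in line 1 was -1.16 (SE 0.37, adjusted p = 0.0936, edgeR), and with the replicate block -1.18 (adjusted p = 0.0147, edgeR). Without a filter on low counts edgeR called it in line 1 as well. WT lay above both lines in this record too. Of 7 other genes tested within 250 kb of Hist3h2ba, 2810021J22Rik was called, lower in line 2 (log2 fold change -1.69, adjusted p = 0.0315, edgeR); in line 1 it had -0.91 (adjusted p = 0.0682, and 0.0163 with the block, edgeR). The line 2 call was lost when any library of WT or line 2 was left out (adjusted p of 0.126 to 0.299, edgeR). It had 12.4 and 15.5 CPM in the WT libraries, 6.76 and 8.05 in those of line 1, and 4.85 and 3.95 in those of line 2. The 150 bases before the starts of the 2 coding Hist3 genes, whose levels differ, are shown from RefSeq (GRCm38.p6, plus strand, chr11:58948761-58948910 and chr11:58954535-58954684), with CCAAT on either strand and TATANA in capitals.
Hist3h2ba: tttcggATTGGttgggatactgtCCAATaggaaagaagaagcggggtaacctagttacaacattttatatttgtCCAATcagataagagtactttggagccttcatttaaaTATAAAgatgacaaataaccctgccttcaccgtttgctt
Hist3h2a: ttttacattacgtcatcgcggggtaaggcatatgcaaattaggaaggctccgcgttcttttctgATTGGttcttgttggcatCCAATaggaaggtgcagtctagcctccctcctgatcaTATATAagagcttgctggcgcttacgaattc
Both hold CCAAT and TATANA, and the octamer is in the 300-base window of Hist3h2a but not of Hist3h2ba.

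On chromosome 3 the Hist2 locus held 10 members between 96219916 and 96270192, and Hist4h4 stood alone on chromosome 6. None of these 11 genes was called by edgeR in any comparison of all 6 libraries. The H2A gene Hist2h2ac had 56.1 and 45.8 CPM in the WT libraries, 60.3 and 45.2 in those of line 1, and 50.4 and 49.5 in those of line 2. Hist2h2ab had 22.0 and 24.5 in the WT libraries, 31.4 and 23.2 in those of line 1, and 17.4 and 18.3 in those of line 2, with line 2 below the other groups (line 2 minus line 1 -0.60, SE 0.21, adjusted p = 0.147, edgeR). The H2B gene Hist2h2bb had 91.2 and 74.1 CPM in the WT libraries, 91.4 and 60.6 in those of line 1, and 84.8 and 66.4 in those of line 2. Its groups overlapped throughout. Hist2h2be, an H2B gene, had 3.79 and 3.04 CPM in the WT libraries, 4.60 and 5.32 in those of line 1, and 4.12 and 4.09 in those of line 2. The H3 gene Hist2h3b ranged from 45.4 to 68.6 CPM over the 6 libraries. Hist2h3c1 and Hist2h3c2 carry the same values, 74.0 and 59.5 CPM in the WT libraries, 92.2 and 46.4 in those of line 1, and 54.8 and 52.7 in those of line 2, and cannot be separated. Hist2h4 had 68.0 and 66.6 CPM in the WT libraries, 70.3 and 50.8 in those of line 1, and 63.5 and 58.7 in those of line 2, and Hist4h4 71.5 and 72.5, then 73.5 and 57.3, then 64.2 and 68.1. In both H4 genes the line 1 libraries spanned the other groups.

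On chromosome 13 the 55 Hist1 members fall into a block of 23 at 21715713-22043658, a block of 31 at 23531044-23934913 and Hist1h2al alone at 51200084-51203066. The median log2 fold change was -0.0012 in the first block and 0.03 in the second in line 1, and -0.20 and -0.14 in line 2. Of the 12 H3 genes, of which 11 have distinct values, 10 of the distinct ones had a log2 fold change above 0 in line 1, beside 50.6% of all symbols. The median over the 12 was 0.12, and none was called. Hist1h3d had 20.5 and 20.6 CPM in the WT libraries, 48.7 and 45.4 in those of line 1, and 42.4 and 18.2 in those of line 2. Line 1 was above WT in both libraries, while the line 2 libraries were on either side. Its line 1 fold change was 1.19 (SE 0.38, adjusted p = 0.0939), and it was called with the block (1.19, adjusted p = 0.0224, edgeR) and in DESeq2 (adjusted p = 0.0244). It was also called by edgeR without a filter on low counts (adjusted p = 0.00919), with WT and line 1 alone (0.02), and without line 2 replicate 1 (0.0221) or line 2 replicate 2 (0.0186). Between the lines it was called without line 2 replicate 1 (-1.36, adjusted p = 0.0431, edgeR). Hist1h3c, with 33.6 and 24.3 CPM in the WT libraries, 40.5 and 43.0 in those of line 1, and 28.6 and 29.9 in those of line 2, was called only with the block in line 1 (0.56, adjusted p = 0.0437, edgeR) and had 0.54 (adjusted p = 0.14) without it. Between the lines the block added Hist1h2ad (-0.64, adjusted p = 0.0316, edgeR) and Hist1h2bk (-0.85, adjusted p = 0.0487, edgeR), both lower in line 2.

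Neighbouring histone genes often start head to head. Among the members, 13 such pairs had starts within 1000 bases of each other, 168 to 608 bases apart, and 12 of them joined an H2A with an H2B gene. Partners were often not of equal level. The median ratio of the higher to the lower partner, per length, was 2.98, and 8 of 13 pairs were more than 2-fold apart. These 8 include the pairs with the long records Hist2h2be and Hist1h2br, the pseudogene Hist3h2bb-ps, and the testis genes Hist1h2ba and Hist1h2aa. The others were Hist1h2ak with Hist1h2bn (7.99-fold), Hist1h2an with Hist1h2bp (3.45-fold), Hist1h2bf with Hist1h2ad (2.98-fold) and Hist1h2ac with Hist1h2bc (2.45-fold). Hist1h2ag and Hist1h2bj were the closest, at 80.8 and 82.8 CPM per kilobase, and Hist2h2ac and Hist2h2be the furthest apart, at 110 and 1.56, the second of these being a long record.

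A few members stood far apart between replicates. The genes at least 4-fold apart between the 2 WT libraries were Hist1h2ao and Hist1h2ba, against 0.38% of all symbols tested. In line 1 these were Hist1h2ao, Hist1h2ap, Hist2h2aa1 and Hist2h2aa2, against 1.61%, and in line 2 there was none, against 0.457%. The testis H2B gene Hist1h2ba had 60.5 counts in WT replicate 1 and 2.5 in WT replicate 2, while its head-to-head neighbour Hist1h2aa had 5.0 counts in all 6 libraries together. Hist2h2aa1 and Hist2h2aa2, which share 1 set of values, had 107.5 counts in line 1 replicate 1 and 18.0 to 26.0 in each other library. Their line 1 fold change of 1.56 (SE 1.04, adjusted p = 0.409) became 2.53 (adjusted p = 0.01, edgeR) without line 1 replicate 2. Leaving out the same library also brought Hist2h3c1 and Hist2h3c2 past the threshold between the lines (-0.78, adjusted p = 0.0367, edgeR). Hist1h2bq and Hist1h2br, also 1 set of values, had 127.0 counts in WT replicate 2 and 7.0 to 22.0 elsewhere. In line 2 they had a log2 fold change of -3.05 (SE 0.85, adjusted p = 0.144, edgeR), which DESeq2 called (-2.98, adjusted p = 0.015). Without a filter on low counts edgeR called them in line 1 (-2.02, adjusted p = 0.0121) and line 2 (-3.05, adjusted p = 0.00209), and in each case WT replicate 2 stood apart from WT replicate 1. Apart from Hist1h2ba, Hist2h3c1 and Hist2h3c2 included, these are records with a second copy in the annotation, and the sources used here do not say how reads with several equal matches were counted.

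Counts were dense on many of these short genes. In the 3 replicate 1 libraries no transcript of at least 300 bases, of 23117, exceeded 0.980 counts per base, whereas the highest reached 2.27, 2.14 and 2.28 in the replicate 2 libraries. Histone genes were among the densest, with 10 to 14 of them in the top 100 transcripts of each library. Hist1h1e had 0.847 counts per base in WT replicate 1 and 1.36 in WT replicate 2. Members were lower in replicate 2 than in replicate 1, in scaled CPM, in 45 of 67 cases in WT, 60 of 67 in line 1 and 50 of 67 in line 2, with medians of -0.14, -0.39 and -0.10 on the log2 scale, against -0.00081, -0.04 and -8.2e-05 for all symbols. The 26 members with at least 0.5 counts per base had medians of -0.03, -0.37 and -0.08, and the 324 other genes of that density -0.15, -0.40 and -0.20. The 14 tested members under 0.1 counts per base had the lowest medians, -0.41, -0.73 and -0.35, whereas the 6666 other genes of that density had 0.03, 0.04 and 0.04. The difference between replicates was not largest in the densest members.

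Calls were rarer among dense genes. In line 1, 20.1% of the other tested genes under 0.1 counts per base were called, 9.12% at 0.1 to 0.3, 5.58% at 0.3 to 0.5 and 2.16% at 0.5 or more; in line 2 these shares were 5.94%, 1.30%, 0.366% and 0%. Of the members, 26 had at least 0.5 counts per base and 21 had 0.3 to 0.5. In the densest class 1 of 26 members was called in line 1 (Hist1h1a), beside 7 of 324 other genes. The standard deviation of the line 2 fold changes there was 0.11 for members and 0.11 for other genes, against 1.10 for other genes under 0.1. The sources used here do not say how repeated reads were treated. The part of density in the histone values was not tested, and a low number of calls among dense members does not show that their levels were the same.

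**Figure D5:**
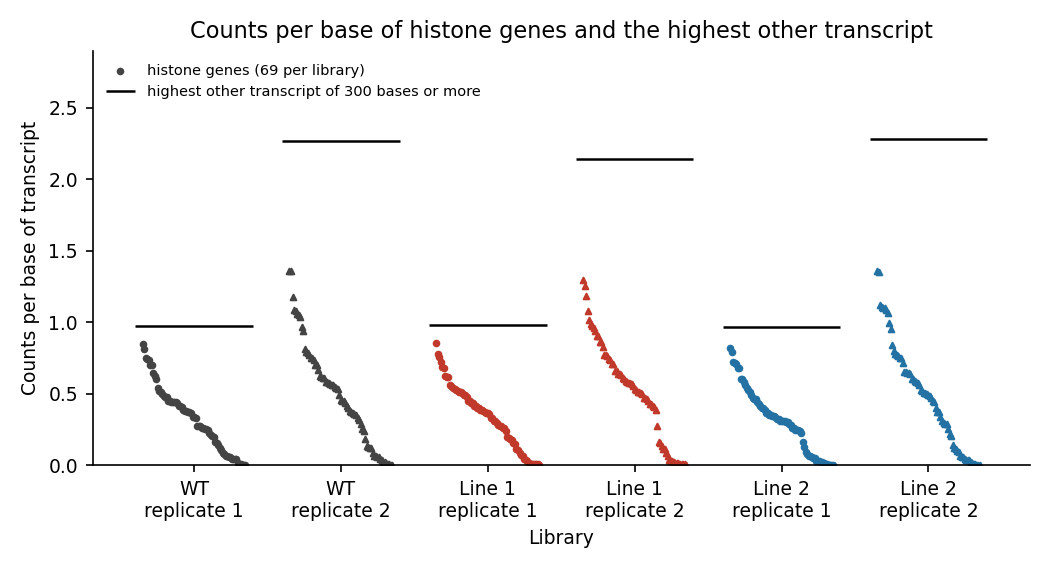
Counts per base of transcript (vertical axis, from 0) of the 69 histone genes in each library, in order of density, with a black line at the highest other transcript of at least 300 bases. Replicate 1 libraries end just below 1 (0.975, 0.980 and 0.967), and replicate 2 libraries reach 2.14 to 2.28.

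Genes that work with histone RNA were also compared. Of 25 tested genes of histone mRNA 3′ end processing and decay, none was called in any of the 3 comparisons by edgeR (2, 0 and 1 with an unadjusted p under 0.05, in the order line 1, line 2 and line 2 minus line 1) or DESeq2. With the replicate block 2, 1 and 1 were called. Over all symbols, in the same order, the main edgeR fit called 14.3%, 3.58% and 12.6%, and the block fit 32.4%, 12.1% and 27.2%. Slbp, the stem-loop binding protein, had 64.2 and 58.9 CPM in the WT libraries, 75.1 and 67.4 in those of line 1, and 63.2 and 62.9 in those of line 2 (log2 fold change 0.21 with adjusted p = 0.37 for line 1, 0.037 with adjusted p = 0.968 for line 2, edgeR). Of 14 tested genes of histone gene transcription none was called against WT (2 and 0 with an unadjusted p under 0.05, none in DESeq2). Npat had log2 fold changes of -0.14 and -0.18. E2f1, a transcription factor of S phase entry, was lower in line 2 than in line 1 (-0.55, SE 0.13, adjusted p = 0.0472, edgeR), a call not made by DESeq2 (adjusted p = 0.0555); in line 1 it had 0.43 (adjusted p = 0.09, and 0.0199 with the block, edgeR). Of 17 histone chaperones none was called against WT (1 and 0 with an unadjusted p under 0.05, none in DESeq2), while Supt16, a FACT subunit, was lower in line 2 than in line 1 (-0.47, SE 0.11, adjusted p = 0.045, edgeR); in line 1 it had 0.40 (adjusted p = 0.0696, and 0.00953 with the block, edgeR). The block called 2, 0 and 2 genes in each of these lists, in the same order of comparisons.

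Genes of the S phase itself were compared in the same way. None of 34 DNA replication genes was called in any comparison (2, 0 and 1 with an unadjusted p under 0.05 in edgeR, none in DESeq2), with medians of 0.14 in line 1 and 0.05 in line 2, beside 0.01 for all symbols. With the replicate block 5, 0 and 3 of them were called. Over all symbols the main edgeR fit called 14.3%, 3.58% and 12.6%, and the block fit 32.4%, 12.1% and 27.2%. Pcna, the replication clamp, had 59.1 and 45.4 CPM in the WT libraries, 67.3 and 56.5 in those of line 1, and 54.8 and 45.5 in those of line 2. None of 20 mitosis genes was called (2, 0 and 2 with an unadjusted p under 0.05 in edgeR, none in DESeq2; 5, 0 and 2 with the block). Mki67, a proliferation marker, had 1024 and 741 CPM in the WT libraries, 786 and 649 in those of line 1, and 824 and 606 in those of line 2, with replicate 1 the higher library in each group; the block called it in line 1 (-0.29, adjusted p = 0.0368, edgeR). Of 8 other RNAs without a poly(A) tail, none was called by edgeR or DESeq2; 0 had an unadjusted p under 0.05. The 12 of this list in the table summed to 1484 and 1300 CPM in the WT libraries, 1583 and 1092 in those of line 1, and 1450 and 1177 in those of line 2. These RNAs, like the histone genes, were higher in sum in replicate 1 of each group.

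Replication-independent histones are for the most part made throughout the cell cycle from polyadenylated mRNA. Of 11 tested, H2afy2, which encodes macroH2A2, was the only one called in any comparison by edgeR. With the block 2, 0 and 2 were called, beside 32.4%, 12.1% and 27.2% of all symbols. H2afy2 had 83.1 and 76.2 CPM in the WT libraries, 5.14 and 4.64 in those of line 1, and 66.9 and 59.6 in those of line 2. Both line 1 libraries were far below the rest, and their log2 fold change from WT was -4.03 (SE 0.18, adjusted p = 0.000274, edgeR) in line 1. In line 2 it was -0.33 (SE 0.14, adjusted p = 0.363, edgeR), and line 2 minus line 1 was 3.70 (SE 0.18, adjusted p = 0.000321, edgeR). The H3.3 genes H3f3a and H3f3b had log2 fold changes of -0.05 and 0.16 for line 1, then -0.25 and 0.06 for line 2. H2afz, the H2A.Z gene, had -0.31 and -0.16. Per length, H3f3b averaged 79.9 and H3f3a 17.7 CPM per kilobase, within and below the range of the replication-dependent H3 genes.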

How the data were processed

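RNA-seq of 6 libraries in 3 groups (WT, line 1 and line 2, n = 2 each) was used, of 31 samples in the series; the others were not analysed here. The authors deposited expected counts per RefSeq transcript over exons of mm10, made with HOMER without normalization, per the file headers. Values come in steps of 0.5, and 37% are not whole. The submitters' processing notes also name Trim Galore 0.4.1, TopHat2, SAMtools and bedtools 2.25.0; for strand, repeated reads and multiply matched reads the handling is not stated there. Expected counts were rounded to whole numbers, with 0.5 rounded up.

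Each of 24470 symbols is represented by its transcript with the most counts (28972 transcripts). The quasi-likelihood fit in edgeR 4.0.16 under R 4.3.3 took all 6 libraries, with TMM scaling, filterByExpr (12910 symbols tested), a mean per group, 3 residual degrees of freedom and Benjamini-Hochberg adjustment at 0.05. Each SE of an edgeR fold change is the absolute log2 fold change divided by the square root of the F statistic of its test. The fit was tested on simulated data. Header totals were 11.0, 16.4, 10.5, 20.1, 11.6 and 18.7 M (M, 1000000 counts) and counts used 4.06, 6.21, 3.81, 7.07, 4.19 and 6.97 M, for WT, line 1 and line 2, replicates 1 and 2 each. Differences between replicates 2 and 1 correlated between groups over 12910 genes (Pearson 0.54, 0.59 and 0.53). Whether depth or a batch accounts for this pairing was not tested. The main fit did not use the pairing, so its SEs and adjusted p-values are those of unpaired groups. Against WT it called 1846 symbols in line 1 and 462 in line 2. With the replicate number as a block, these were 4182 and 1568. Results of the block fit are given as an alternative, by gene or as counts of calls.

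Alternatives were RLE scaling, library totals, DESeq2 1.42.0, no filter, the block, the compared groups alone, summed transcripts, rounding 0.5 down and leaving out each library. Members and lists (7 gene lists and cell type markers) were chosen with earlier results of these data known, as was the naming rule: Xist, the 3 highest members per type, every member called, all Hist2, Hist3 and Hist4 members, testis members, up to 3 called genes per list, and Slbp, Npat, H3f3a, H3f3b, H2afz, Pcna and Mki67. Members called only in an alternative or far apart between replicates, neighbours, Cd68, Ptprc and Tek were named after their values were seen. Promoters came from RefSeq by gene ID (62 of 69).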

Additional observations from a re-analysis of the deposited data

Results flagged for a closer look

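Of the genes reported, 6 differed between the 2 lines by a direct test, line 2 minus line 1 in edgeR without the replicate block. With the block, Cd68, Tek, Hist1h2ad and Hist1h2bk were called as well, and Cd68 and Tek also without a filter on low counts. Hist1h1a had a log2 difference of 0.89 (adjusted p = 0.0172), with both line 1 libraries below both line 2 libraries. H2afy2 had 3.70 (adjusted p = 0.000321), also with line 1 the lower. E2f1 had -0.55 (adjusted p = 0.0472) and Supt16 -0.47 (adjusted p = 0.045), both higher in line 1. Dcn had -3.06 (adjusted p = 0.0083) and Carmil1 -0.63 (adjusted p = 0.0204), likewise higher in line 1. The background of such calls was 12.6% of symbols, and each line is a single cell line. The E2f1 call was lost in DESeq2 (adjusted p = 0.0555) and the Supt16 call with library totals alone (-0.48, adjusted p = 0.061, edgeR). Both were also lost when any 1 library was left out, other than line 1 replicate 2 for E2f1 and line 1 replicate 1 for Supt16 (adjusted p of 0.0811 to 0.269 and of 0.0779 to 0.289, edgeR), and with the 2 lines alone (0.109 and 0.125). The Dcn call was lost without line 2 replicate 2 (-2.81, adjusted p = 0.0663, edgeR). The Carmil1 call was lost without any 1 library of WT or line 2 (adjusted p of 0.0579 to 0.189, edgeR) and with the 2 lines alone (0.0608).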

How the results depend on the processing

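Of 1049 alternative values for named histone genes (75 results, 14 settings), 1030 kept a call and its direction or stayed uncalled. Another 12 gained a call, 7 lost one and none reversed a call. Results that stayed uncalled count as kept whatever their direction. For other named genes 663 of 712 were kept, 25 lost and 24 gained. Members called in line 1 numbered 2, and 6 without a filter and 5 with the replicate block; leaving out 1 library gave 0 (without either WT library) to 4 (without line 1 replicate 2). In line 2 the 0 calls became 2 in DESeq2, 3 without a filter, 1 with the replicate block and 1 with the compared groups alone. Between the lines the 1 call became 3 with the replicate block and 0 (without line 2 replicate 2) to 7 (without line 1 replicate 2) when 1 library was left out. The members' median log2 fold change ran from -0.26 (without line 1 replicate 1) to 0.20 (without line 1 replicate 2) in line 1, and from -0.38 (without line 1 replicate 2) to 0.056 (without line 1 replicate 1) between the lines, so 1 library sets its sign. In line 2 it was -0.46 over the 20 members under 0.3 counts per base, an alternative chosen after seeing the data. Scaled to the header totals, summed levels were 1088 CPM in WT, 1049 for line 1 and 973 for line 2; in WT they were 2782 CPM without the member with the most counts and 3124 summed over transcripts. Calls over all symbols in line 1 also fell without either WT library, as did those between the lines without either line 2 library. The falls to 0 members came with these general falls. Members with identical values (Hist2h2aa1 and Hist2h2aa2, Hist2h3c1 and Hist2h3c2, Hist1h2bq and Hist1h2br) were each counted in the numbers of members called. Where an arm was left with 1 library, that library was assumed to vary like the others. The few counts of Hist3h2ba limit the precision of its fold change. The cause of these changes was not tested.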
